A study of Homo sapiens with 2 samples.

Results

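ChIP-seq with an antibody against the chromatin reader ZMYND8 placed 0 summits from ZMYND8 knockout mammospheres and 32 summits from parental mammospheres at 8 hypoxia-induced genes. The genes were VEGFA, ADM, ANGPTL4, PDK1, BNIP3, CA9, P4HA1 and LOX. They were selected by their names and their hg19 spans, and a summit belonged to a gene when it lay in its span or within 5 kb of either end. These 32 summits were 0.0697% of the 45924 summits in the parental list, and the knockout list held 385 summits in all. A summit is the position in a called peak where the signal stood highest, and its score is a −log10 p or q value from the authors' peak caller.

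Cells that lack oxygen stabilise the alpha subunits of the hypoxia-inducible factors, which pair with ARNT and bind a short DNA element with the core ACGTG or GCGTG. The genes they switch on make blood vessels, lower the use of oxygen by mitochondria, move acid out of the cell and remodel collagen. ZMYND8 reads acetylated and methylated histones through its bromodomain, PHD and PWWP domains, and it has been described as a coactivator of these factors in breast cancer cells. MDA-MB-231 is an established triple-negative breast cancer line. Its mammospheres grow in suspension, a way of enriching cells with stem-like features.

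The knockout group was 1 library from MDA-MB-231 spheres with a ZMYND8 knockout, and the parental group was 1 library from wildtype MDA-MB-231 spheres. Both were grown in MammoCult medium and used the same ZMYND8 antibody, and the labels give no oxygen level and do not say whether the knockout is 1 clone. With 1 library per group, genotypes could not be compared against a spread between replicates, and the intervals below are 95% intervals for counting error only. The knockout list was 0.838% as long as the parental list, at a read depth not given in the sources used here. Summit lists carry no transcript levels, so neither the loss of ZMYND8 nor the hypoxic induction of the 8 genes could be checked in them.

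Promoter sequences show where the response element core lies next to each start. RefSeq promoter windows of assembly GRCh38.p14, which run from 250 bases before to 50 after a start, were matched by symbol for 7 of the 8 genes. VEGFA had no entry. The windows printed here belong to CA9, the gene without a promoter summit, to BNIP3 and PDK1, whose promoter summits scored highest, and to LOX, whose only summit lay at its promoter. P4HA1, whose only summit also lay at its promoter, is not printed. BNIP3, PDK1 and LOX are also the matched genes with 2 or more core sites in a window. For PDK1 and LOX the window with most cores is printed. Capitals mark the core, ACGTG or GCGTG on the strand shown, or its reverse complement CACGT or CACGC.
CA9: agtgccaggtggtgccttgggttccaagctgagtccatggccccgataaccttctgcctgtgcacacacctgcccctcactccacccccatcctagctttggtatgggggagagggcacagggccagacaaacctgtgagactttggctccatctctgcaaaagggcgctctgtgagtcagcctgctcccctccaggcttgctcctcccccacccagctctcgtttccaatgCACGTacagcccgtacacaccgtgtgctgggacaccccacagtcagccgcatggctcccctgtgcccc
BNIP3: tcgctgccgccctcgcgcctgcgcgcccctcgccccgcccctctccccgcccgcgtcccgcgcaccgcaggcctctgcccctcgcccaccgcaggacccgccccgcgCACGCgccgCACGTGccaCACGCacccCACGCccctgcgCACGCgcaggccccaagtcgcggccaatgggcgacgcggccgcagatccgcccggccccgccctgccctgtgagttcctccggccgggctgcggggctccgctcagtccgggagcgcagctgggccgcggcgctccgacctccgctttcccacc
PDK1: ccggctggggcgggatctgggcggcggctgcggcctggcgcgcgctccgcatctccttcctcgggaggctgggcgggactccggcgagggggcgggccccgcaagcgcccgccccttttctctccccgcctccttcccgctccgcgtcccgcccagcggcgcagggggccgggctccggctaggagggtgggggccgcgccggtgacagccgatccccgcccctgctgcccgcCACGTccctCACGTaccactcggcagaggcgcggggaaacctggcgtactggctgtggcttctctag
LOX: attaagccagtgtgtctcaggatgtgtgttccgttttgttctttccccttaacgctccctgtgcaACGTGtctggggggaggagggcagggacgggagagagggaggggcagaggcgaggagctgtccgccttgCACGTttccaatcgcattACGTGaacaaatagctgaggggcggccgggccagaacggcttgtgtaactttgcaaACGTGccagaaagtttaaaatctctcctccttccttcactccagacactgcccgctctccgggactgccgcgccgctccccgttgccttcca

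All 7 matched genes had at least 1 core in a window, beside 61.9% of the 15843 protein-coding genes in the table. The exact interval for 7 of 7 runs from 59.0 to 100, which takes in that share. Counted by window, 9 of their 10 windows had a core, beside 54.7% of the 22199 windows of protein-coding genes. Overlapping matches on both strands counted as 1 site. BNIP3 had 5 sites, and 1.16% of windows had as many. Each core contains a CpG, and the shares of windows given here were not matched for base composition. The BNIP3 window was 80.7% GC. In the BNIP3 site that reads CACGTG the matches on both strands overlap. LOX, with 3 windows, had 4 sites in the window printed, a number that 3.40% of windows reached, and 2 sites in each of its other windows. Those other windows overlap and hold the same 2 sites, so the count by window includes these sites more than once. PDK1 had 2 sites, 17 and 8 bases before the start, in the window printed, and none in its other window. Windows with 2 or more sites were 24.0% of all. The CA9 core began 18 bases before the start, and ADM, ANGPTL4 and P4HA1 also had 1 site each.

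The windows differed widely in CpG content. CA9 had the fewest CpG dinucleotides of the windows with a core, 7, a count above that of 23.9% of protein-coding windows, and an observed over expected CpG ratio of 0.255. BNIP3 had 48 CpGs, more than 97.5% of windows, and PDK1 had 38, more than 87.3% of windows. P4HA1 had 31, ANGPTL4 20, LOX 19 and ADM 16, beside a median of 21 over protein-coding windows. Sequence content and summit position were not tested against each other. Of the 32 summits, 1, that of VEGFA 44 bp downstream of its start, lay in the stretch from 250 bases before to 50 after the hg19 start.

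**Figure D1:**
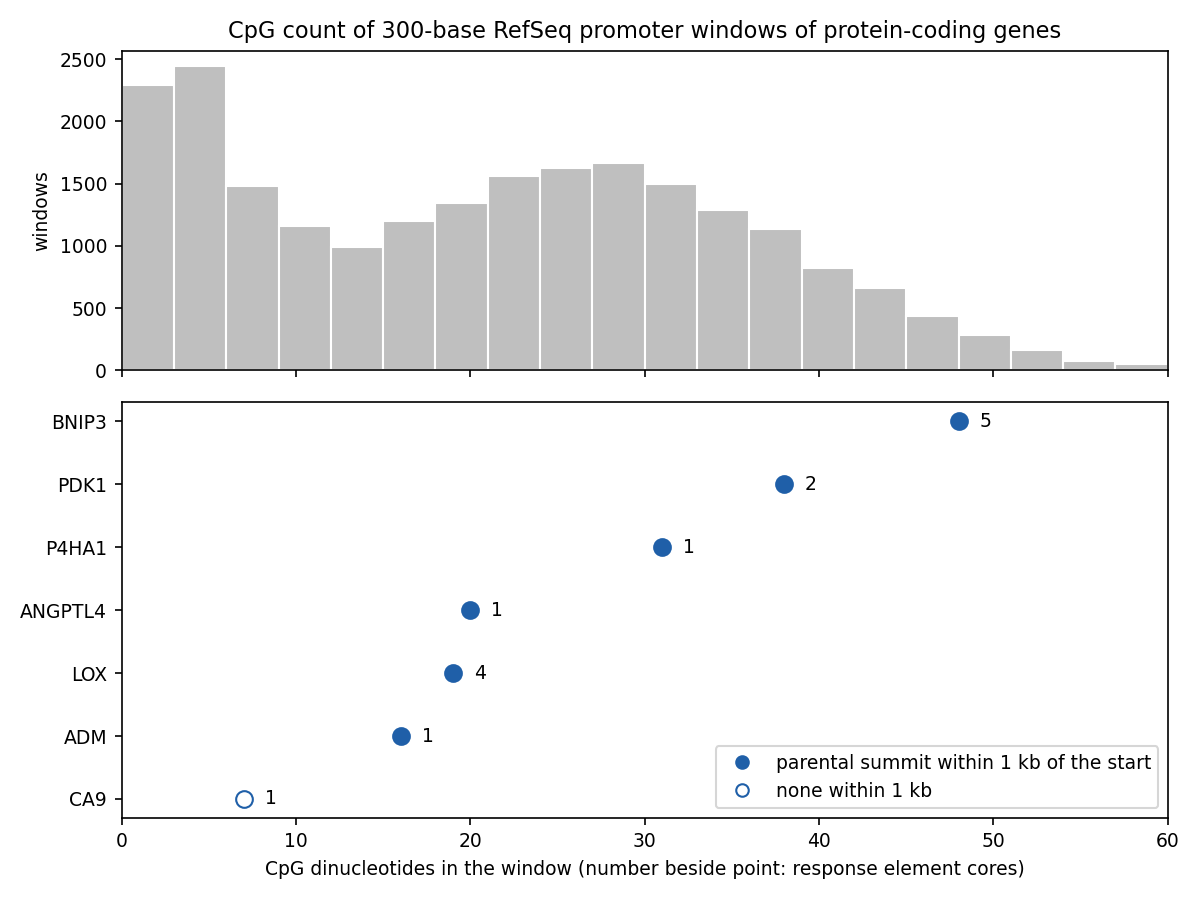
The upper panel shows the number of RefSeq promoter windows of protein-coding genes by their count of CpG dinucleotides. The lower panel shows the 7 matched genes (for PDK1 and LOX the window with most cores) by CpG count, with the number of response element cores beside each point, filled where the parental list had a summit within 1 kb of the hg19 start; CA9, the open point, has 7 CpGs and BNIP3 has 48.

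None of the 8 promoters carried a knockout summit, and 7 carried a parental summit. A promoter was taken as 1 kb to either side of the hg19 start. No member promoter had a knockout summit, beside 0.608% of 329 sampled hg19 protein-coding genes, and no widened span had one, beside 0.912% of the sampled genes. In the parental list 7 of 8 promoters (87.5%, exact Clopper-Pearson interval 47.3 to 99.7) had a summit, beside 48.6% of the sampled genes. The interval reaches down to that background, so 8 genes do not separate the share from it. All 8 widened spans held a parental summit (interval 63.1 to 100), beside 64.7% of the sampled genes, and here too the interval takes in the background.

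High scores were more common at the 8 genes than in the sample. VEGFA, BNIP3, ANGPTL4, PDK1 and ADM, 5 of the 8, had a parental summit with a score of at least 10 in the widened span, 62.5% (24.5 to 91.5), beside 6.99% of the sampled genes. Within 1 kb of the start it was 3 of 8 genes, BNIP3, PDK1 and ANGPTL4 (37.5%, 8.52 to 75.5), beside 4.26% of the sampled genes. At least 5 summits were held by 3 of 8 widened spans, those of ANGPTL4, VEGFA and ADM (37.5%, 8.52 to 75.5), beside 9.42% of the sampled genes. At the cutoff of 10 the intervals for the scores lay above the background, and the interval for the number of summits took it in. Of the member summits that reached 10, 4, at ADM and ANGPTL4, had a score of 10.02, just above the cutoff. None of the 8 genes had a summit with a score of 15 or more. The share of sampled genes at cutoffs above 10 was not counted. The sampled genes are not known to be a random sample, and the part of gene expression in these shares was not tested. The sampled genes were longer, with a median of 32.2 kb against 14.7 kb for the 8 genes.

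**Figure D2:**
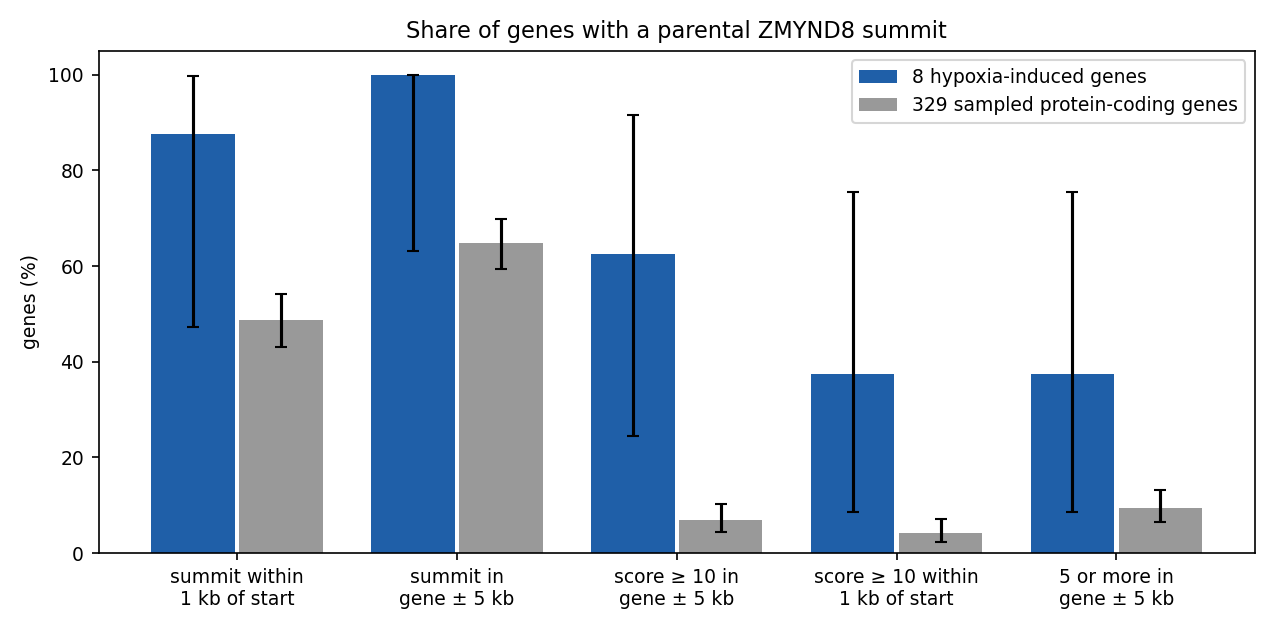
Bars give the percent of the 8 hypoxia-induced genes (blue) and of 329 sampled protein-coding genes (grey) that met each criterion in the parental list, with exact Clopper-Pearson 95% intervals. The blue bars for a score of at least 10 stand at 62.5% in the widened span and 37.5% at the promoter, against 6.99% and 4.26% in grey.

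Read by summit, 8 of the 32 parental member summits (25%, 11.5 to 43.4) had a score of at least 10, beside 6.27% of the whole parental list. Without ANGPTL4 it was 4 of 18 (22.2%, 6.41 to 47.6). The intervals by summit treat each summit as independent, but summits of the same gene may not be, and 14 of the 32 lay at ANGPTL4. They may therefore be too narrow, and the limit of 6.41 stands close to the 6.27% of the list. The highest scoring 25% of the list, which ties extend to 26.1% of it, took in 12 of the 32 (37.5%, 21.1 to 56.3), an interval that covers the background. The median score was 4.71 at the 8 genes, against 3.79 in the whole list. No member summit reached 15, a score that 1.59% of the parental list did reach. Scores took few distinct values, and 5 of the 32 summits shared the value 3.79 with 11.96% of the parental list.

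**Figure D3:**
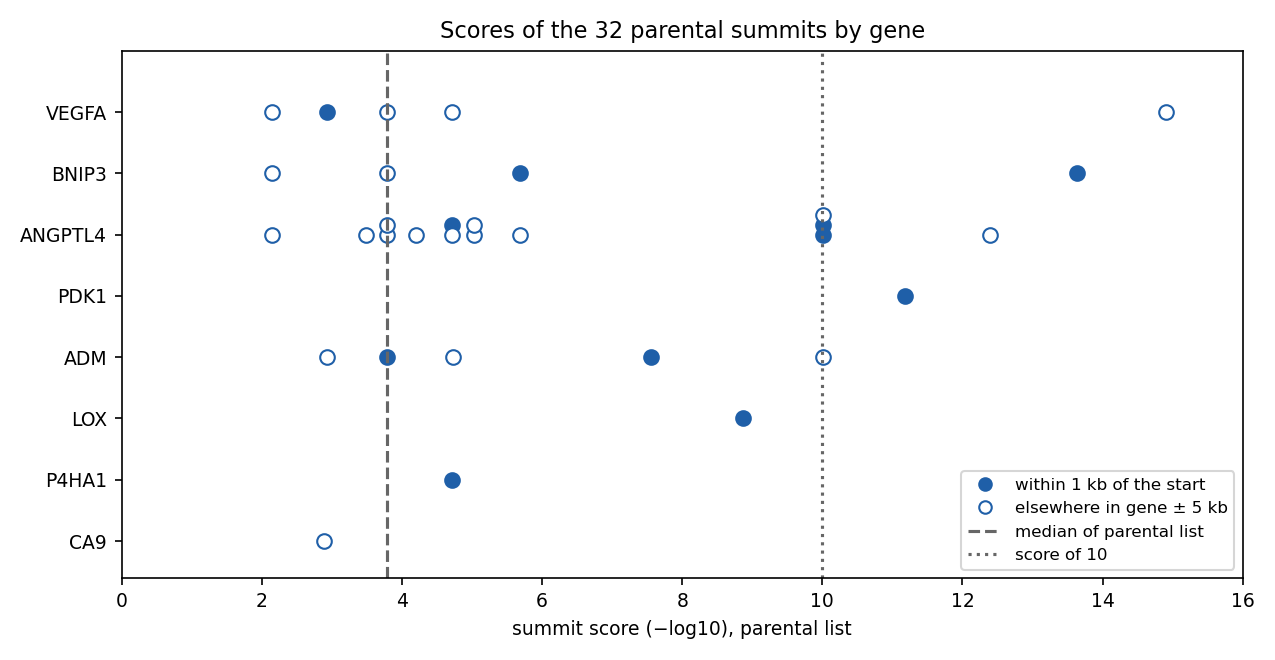
Each point is a parental summit at its score (the authors' −log10 value), by gene, filled within 1 kb of the start and open elsewhere; points of equal score in a gene are set apart vertically. VEGFA reaches 14.9 and BNIP3 13.6, and CA9 has a single point at 2.88, below the list median of 3.79.

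The secreted factors held no knockout summit and 24 of the 32 parental ones. VEGFA, the main growth factor for blood vessels, lies on chromosome 6 at 43737946 to 43754223 on the plus strand (all positions are 1-based hg19). The knockout list held no VEGFA summit, and the parental list held 5. The highest lay at 43739667, 1721 bp downstream of the start, with a score of 14.9 and rank 731 in the parental list. The other 4 were a promoter summit at 43737990 (44 bp downstream, score 2.93) and summits at 43740574 (score 2.14), 43741075 (score 4.71) and 43748316 (score 3.79). The VEGFA summits were thus all inside the gene, the highest of them beyond the promoter, and the 5 kb upstream of the start held none. The score of its promoter summit was matched or passed at the promoters of 45.3% of the sampled genes.

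ADM encodes adrenomedullin, a peptide that widens blood vessels, and lies on chromosome 11 at 10326642 to 10328923 on the plus strand. The knockout list held no ADM summit, and the parental list held 5. The highest, at 10324782, lay 1860 bp upstream of the start with a score of 10.02. Of its 2 promoter summits, that at 10326920, 278 bp downstream, had a score of 7.56, and that at 10326281, 361 bp upstream, had 3.79. Another at 10327789 in the gene had 2.93, and the last, at 10329190, lay 267 bp past the gene end with 4.73. This short gene of 2.28 kb therefore had summits before, inside and after it, at gaps of 639 to 1499 bp.

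ANGPTL4, a secreted inhibitor of lipoprotein lipase, lies on chromosome 19 at 8429011 to 8439257 on the plus strand and carried the most summits of the 8 genes. The knockout list held none, and the parental list held 14 (exact Poisson interval 7.65 to 23.5), 43.8% of all member summits. They ran from 8424442, 4569 bp upstream of the start, to 8440535, 1278 bp past the gene end, at a median gap of 672 bp. The highest lay inside the gene at 8432152, 3141 bp from the start, with a score of 12.4. Promoter summits at 8428119 and 8429174, 892 bp upstream and 163 bp downstream, and a summit at 8433434 in the gene tied at 10.02, and the other 10 summits had scores of 2.14 to 5.68. As many summits were found at 1.82% of the sampled genes. The run went beyond the gene. Within 100 kb of either end, with the gene and its 14 summits counted, the parental list held 46 summits. That was 0.219 per kb, against 0.0506 per kb over chromosome 19, and the knockout list held none there.

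**Figure D4:**
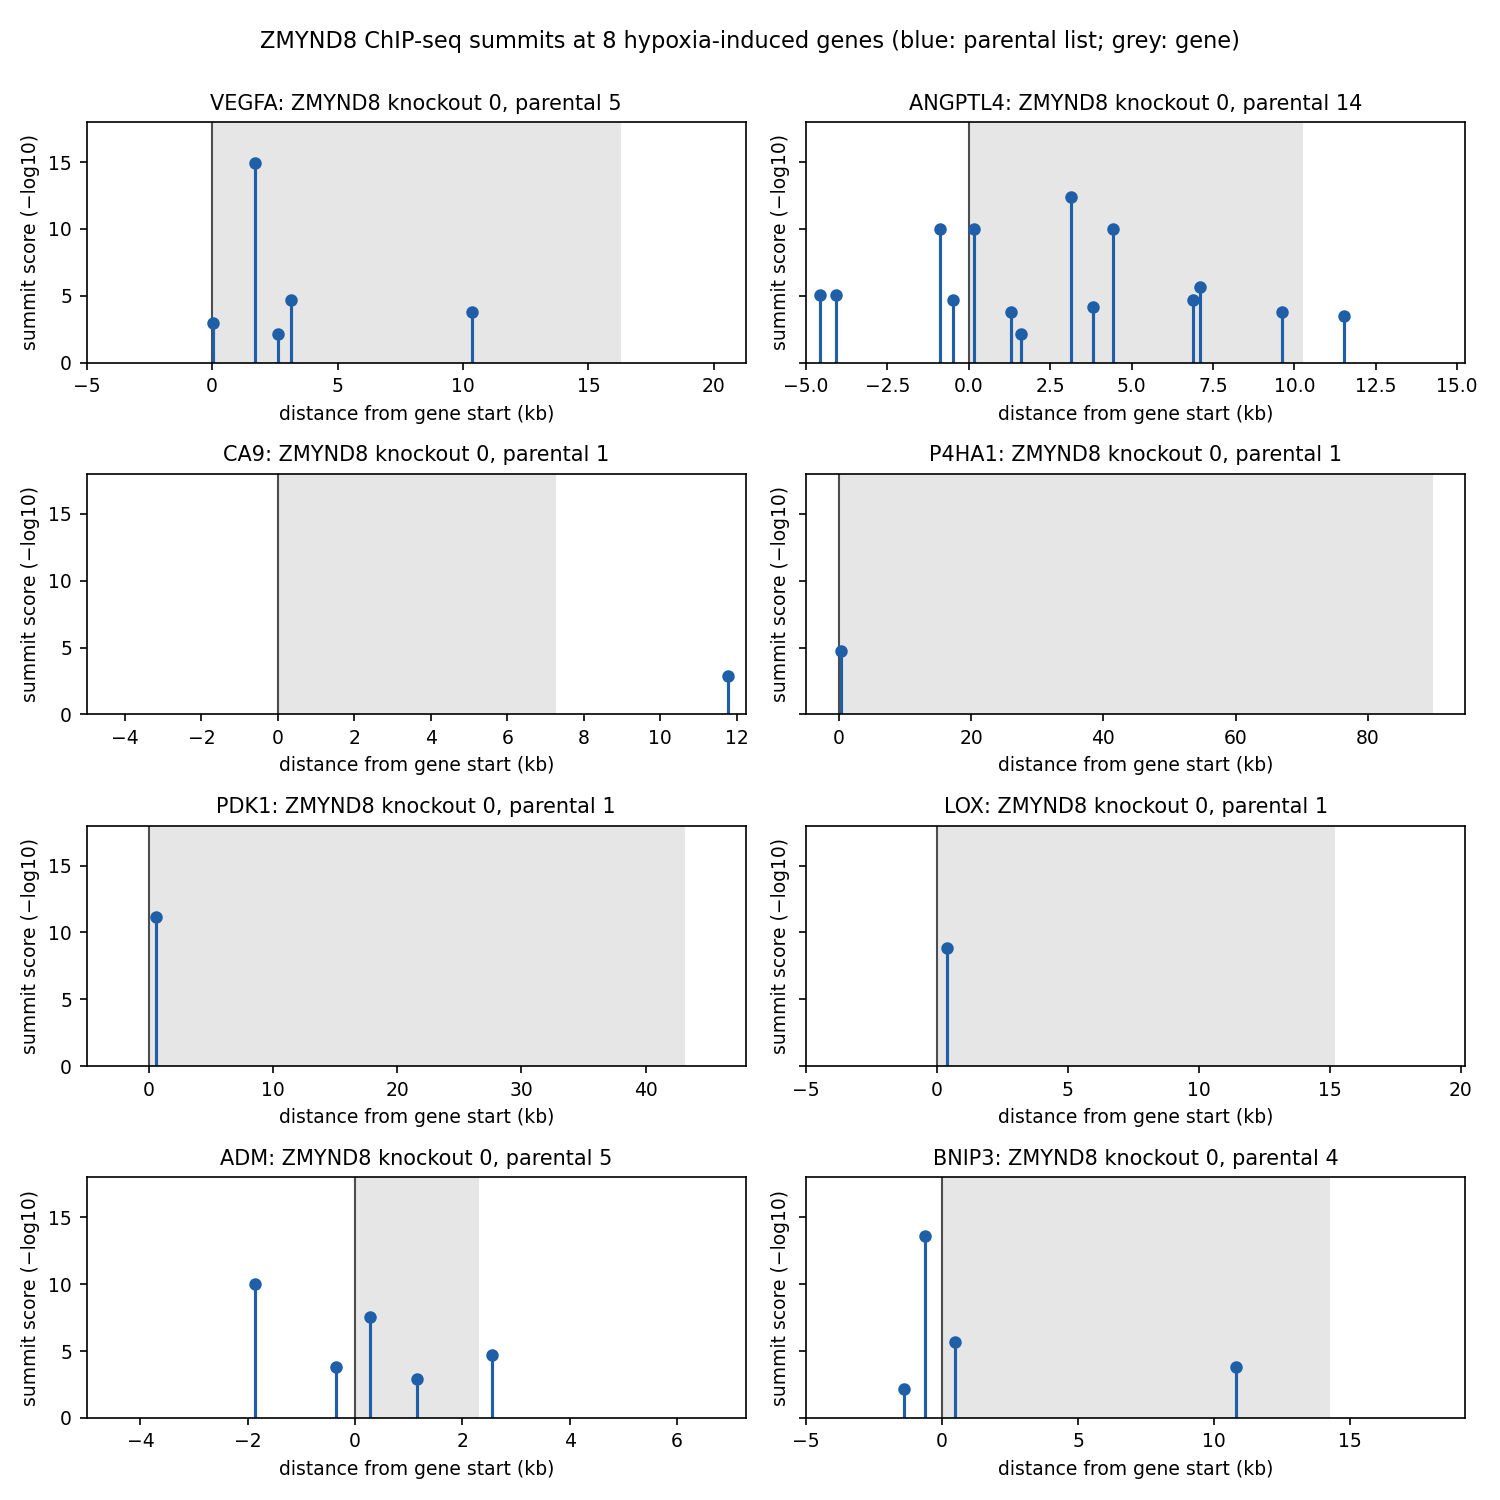
Each panel shows 1 gene (grey) with 5 kb on either side, by distance from its start in kb in the direction of transcription (scale differs between panels), and each blue stem is a parental summit at its score. The titles give the number of summits per list; the knockout list has 0 in every panel, ANGPTL4 has 14 parental summits, and CA9, PDK1, P4HA1 and LOX have 1 each.

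Genes of mitochondria and acid balance held no knockout summit and 6 parental ones. BNIP3, a receptor that marks mitochondria for removal, lies on chromosome 10 at 133781204 to 133795435 on the minus strand, and had no knockout summit and 4 parental ones. Its highest lay at 133796071, 636 bp upstream of the start, with a score of 13.6 and rank 967. That was the highest promoter score of the 8 genes, and 2.74% of the sampled genes had a promoter score as high. The other summits lay at 133794959, 476 bp downstream (score 5.68), at 133796832, 1397 bp upstream (score 2.14), and at 133784639 in the gene (score 3.79). Per the RefSeq table of GRCh38.p14, the coding gene PPP2R2D overlaps BNIP3, and summits were assigned by position alone.

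PDK1, a kinase that inhibits pyruvate dehydrogenase and so keeps pyruvate from being burnt in mitochondria, lies on chromosome 2 at 173420779 to 173463862 on the plus strand. The knockout list held no PDK1 summit, and the parental list held 1, at 173421353, 574 bp downstream of the start, with a score of 11.2 and rank 1743. The remaining 43.1 kb gene and its flanks were empty in both lists. A promoter score as high was found at 3.34% of the sampled genes, and the nearest parental summit outside the widened span lay 40561 bp from the gene.

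CA9, the cell surface carbonic anhydrase often used as a tissue marker of hypoxia, lies on chromosome 9 at 35673915 to 35681154 on the plus strand and was the exception among the 8. It had no knockout summit, and its only parental summit, at 35685679, lay 4525 bp past the gene end with a score of 2.88. In the parental list 79.7% of summits scored at least that. The next coding gene on that side in GRCh38.p14 is TPM2, a tropomyosin gene, and whether the summit lies inside it in hg19 was not determined here. Neither list placed a summit in the CA9 gene or in the 5 kb upstream of it.

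P4HA1 and LOX, whose products act on collagen, each had no knockout summit and a single parental summit, just downstream of the start. P4HA1, the catalytic subunit of the collagen prolyl hydroxylase, lies on chromosome 10 at 74766980 to 74856732 on the minus strand, and its summit at 74856360 lay 372 bp downstream with a score of 4.71. LOX, the enzyme that crosslinks collagen and elastin, lies on chromosome 5 at 121398890 to 121414055 on the minus strand, and its summit at 121413664 lay 391 bp downstream with a score of 8.87. A promoter score at least that of P4HA1 was found at 28.9% of the sampled genes, and at least that of LOX at 6.69%. In GRCh38.p14 the coding gene SRFBP1 overlaps LOX.

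Promoter summits of the 8 genes were placed relative to the start. The nearest summit lay downstream of the start in all 7 genes that had a promoter summit, at 44 to 574 bp with a median of 372 bp, and in 72.5% of the 160 sampled genes with one. With 7 genes the interval for the share runs from 59.0 to 100, so they do not separate it from the sampled share. Where the nearest summit of a sampled gene lay downstream, its median distance from the start was 204.5 bp, against 372 bp in the 7 genes, a difference that was not tested. Of all 11 promoter summits of the 8 genes 7 lay downstream (63.6%, 30.8 to 89.1), against 65.7% of those in the sample. The highest summit of a gene lay in its promoter in BNIP3, PDK1, P4HA1 and LOX, and outside it in VEGFA, ADM, ANGPTL4 and CA9.

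Summit density varied widely among the 8 genes. Over the 278.3 kb of widened spans the parental list held 0.115 summits per kb (exact Poisson interval 0.0787 to 0.162), against 0.0252 per kb over the sampled genes and 0.0151 per kb over chromosomes 1 to 22 and X. The sampled genes were longer (median 32.2 kb against 14.7 kb), and the part of gene length in this gap was not tested. The Poisson intervals treat summits as independent and may be too narrow, since 14 of the 32 lay at ANGPTL4. ANGPTL4 stood highest with 0.691 per kb (0.378 to 1.16), followed by ADM with 0.407 (0.132 to 0.95), VEGFA with 0.190 (0.0618 to 0.444) and BNIP3 with 0.165 (0.0450 to 0.423). The intervals of neighbours in this order overlapped, and differences between genes were not tested. A density as high was found at 0.608% of the sampled genes for ANGPTL4, 1.52% for ADM, 7.90% for VEGFA and 8.51% for BNIP3. CA9 (0.0580), LOX (0.0397), PDK1 (0.0188) and P4HA1 (0.0100) had 1 summit each, and their intervals all took in the density of the sampled genes. The pooled density rested on few genes: without ANGPTL4 it was 0.0698 per kb, and without P4HA1, the longest gene, 0.174 per kb. ANGPTL4, ADM, VEGFA and BNIP3 together held 28 of the 32 summits (87.5%).

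**Figure D5:**
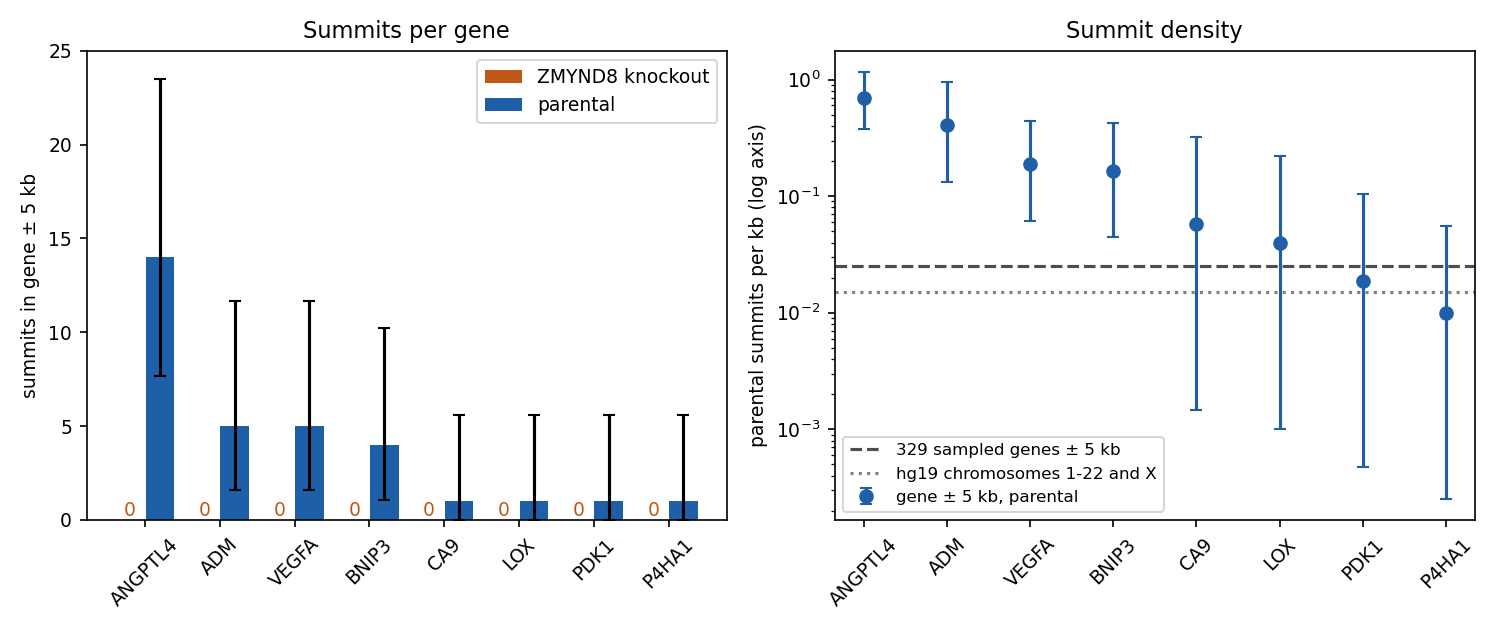
The left panel gives summits per gene in the widened span, ZMYND8 knockout (all 0) and parental, and the right panel parental summits per kb on a log axis; error bars are exact Poisson 95% intervals. The dashed line marks 329 sampled genes pooled at 0.0252 per kb and the dotted line chromosomes 1 to 22 and X at 0.0151 per kb. ANGPTL4, ADM, VEGFA and BNIP3 lie above both with their intervals. The lines do not show the spread among sampled genes, of which 7.90% were as dense as VEGFA and 8.51% as dense as BNIP3.

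No knockout summit lay near any of the parental ones. Of the 32 parental member summits 0 had a knockout summit within 1000 bp, which allows a share of up to 9.38% by a limit of 3 counts, or 10.9% by the exact Clopper-Pearson interval, beside 1.21% of the whole parental list. The nearest knockout summit lay 263 kb from a VEGFA summit, and the farthest of these distances was 40.4 Mb, for PDK1. If the lists differed at these genes as they do in length, 0.268 knockout summits would stand beside the 32 parental ones, so the count of 0 does not set these genes apart from the rest of the list. A loss of binding and a lower yield or depth of the knockout library cannot be told apart from these lists.

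Of 70 other hypoxia genes, in a list drawn up for this report and not taken from a pathway source, 1 was among the sampled hg19 genes. The pathway as a whole could therefore not be counted. This was GAPDH, a glycolytic enzyme, on chromosome 12 at 6643683 to 6647537, with no knockout summit and 5 parental ones. Its promoter summits lay 390 bp upstream and 378 bp downstream of the start, at 6643293 and 6644061, and both had a score of 6.70. A further summit of the same score lay 1998 bp upstream, at 6641685, and those at 6646344 and 6650781 had scores of 2.93.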

How the data were processed

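Per the submitters' processing notes, the build was hg19 and the tools were Bowtie2 2.2.3, MACS2 2.0.10, Picard 1.127 and FastQC 0.11.2. No source used here gives their settings, the control or the read depth. The authors deposited 1 summit list per library, with a −log10 p or q value per summit (which of these is not stated). Scores depend on depth and control, so they were ranked within a list only. Unequal depth alone can make lists unequal in length.

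Gene spans were given in hg19, and the start is the 5′ end of the span. Intervals are exact at 95%, Poisson for counts and Clopper-Pearson for shares. The limit of 3 for a count of 0 is a fixed rule, where the exact Poisson upper limit is 3.69. No test across libraries was possible. Background genes, which do not come from the deposited files, were read from the example transcripts of the software packages GenomicFeatures 1.54.1 (178, hg19) and pyranges 0.1.4 (500, no build stated, sequence names as in hg19). Of these, 666 identifiers matched a RefSeq table of GRCh38.p14, used for names and gene types, which left 329 protein-coding genes. A sampled gene's start was the 5′ end of its transcripts. Chromosome lengths came from GenomeInfoDb 1.38.1. Promoter windows are RefSeq sequences of GRCh38.p14, with no coordinate carried between builds. All 8 genes are named with every summit for up to 10, otherwise the highest 3 by score, their ties, the highest promoter summit and the outermost. The genes and lists were chosen with earlier results of these data known. Counting was tested on planted summits. Python 3.11.15, numpy 2.4.6, scipy 1.17.1, pandas 2.3.3 and matplotlib 3.10.9 were used. Alternatives covered flanks, promoter windows, score minimums, partner distances, merging and transcript sets.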

Additional observations from a re-analysis of the deposited data

How the results depend on the processing

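No paired analysis was possible because the knockout and parental groups have a single library each. The knockout counts at the 8 genes were 0 under every flank, promoter window, partner distance and merging tried. The 32 parental summits became 21 with no flank and 53 with a flank of 20 kb, which follows from the length searched. With a score of at least 10, members with a parental summit were 5 in the widened span and 3 at the promoter, which follows from the shorter list. Leaving out each gene in turn, the density ran from 0.0698 to 0.174 per kb. The GenomicFeatures transcripts alone (38 genes) gave a promoter share of 34.2% of sampled genes; the cause was not tested. The sampled promoter share also moved with the settings used for the 8 genes. It was 54.7% within 5 kb, where 7 of the 8 genes had a parental summit, 22.5% with a score of at least 5 and 20.4% with the highest scoring 25% of the list, where 5 of 8 had one each time, and 4.26% with a score of at least 10. The other alternatives for counts and density at the 8 genes stayed within 1.5 times of the reported value. The depth of both libraries is unknown, which limits any comparison between them.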

Other observations

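Just inside the 5 kb limit of the spans lay the ANGPTL4 summit 4569 bp upstream of the start (score 5.03) and the CA9 summit 4525 bp past the gene end (score 2.88). The nearest parental summit just outside it was again at ANGPTL4, 5443 bp upstream of the start, with a score of 2.62. Beyond it came those of CA9, 8769 bp past the gene end (score 5.20), and of ADM, 10219 bp upstream (score 7.56). Within 25 kb of the genes, with the genes themselves counted, ANGPTL4 had 27 parental summits, ADM 10, BNIP3 9 and VEGFA 8, while PDK1 had 1 and P4HA1 and LOX 2 each. No gene had a knockout summit within 100 kb.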
